A study of Mus musculus with 2 samples.

Results

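Wnt ligands, a secreted Wnt inhibitor and Wnt target genes of the mouse lung are described here through 10 genes: *Wnt2*, *Wnt4*, *Wnt5a*, *Wnt7a*, *Sfrp1*, *Lef1*, *Axin2*, *Ccnd1*, *Cd44* and *Myc*. They were chosen by symbol, and each symbol matched 1 row in both count matrices, so they are 10 of the 31053 genes measured. Lung cells came from *Pclaf* WT mice and *Pclaf* KO mice of 8 to 10 weeks, and both groups had been given bleomycin at 1.35 U/kg, a drug that injures the alveolar epithelium, 1 week earlier. *Pclaf* encodes a PCNA-binding protein of dividing cells. Each genotype was measured in 1 droplet single-cell RNA library made with a 3' kit, and the number of mice behind a library was not given in the sources used here. The KO mice lack *Pclaf* in the whole body in a previously established line, so each cell type of the KO library carries the deletion. The labels call the cells of both libraries lung epithelial cells, sorted as Cd31-, Cd45- and Epcam+. With 1 library per genotype, no difference between the genotypes could be tested, and each ratio below compares these libraries only.

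Wnt proteins are secreted, lipid-modified signals that bind Frizzled and Lrp receptors on nearby cells. In the canonical branch this stops the breakdown of beta-catenin, which then acts in the nucleus with TCF and LEF proteins on target genes. In the adult lung, fibroblasts next to alveolar type 2 (AT2) cells are a known source of Wnt signals, and *Axin2* is the common marker of cells that receive them.

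The WT library held 30669 barcodes with a median of 2105 unique molecular identifiers (UMIs), and the KO library 17172 barcodes with a median of 5682. The limits on cells, 200 to 5000 genes with a mitochondrial share below 20%, left 30187 WT and 15637 KO cells. By the labels 16000 cells were loaded per library, so the kept WT barcodes cannot all be separate loaded cells. Counts and shares of cells below are counts and shares of kept barcodes. The gene targeted in the KO, *Pclaf*, had 39.3 UMIs per 1000000 UMIs (CPM) over the kept WT cells and 5.19 CPM over the kept KO cells. Among cycling alveolar cells alone, *Pclaf* was at 228 CPM (161 to 313) in WT and still at 126 CPM (110 to 144) in KO. How much of the KO signal comes from sequence outside the deleted part was not tested. Each cell took the class whose fixed markers scored at least 1.5 times above those of the next class. At least 2 of these markers had to be detected. This left 8652 kept WT and 2137 kept KO cells without a class, and the class levels below leave them out. Of the WT *Sfrp1* UMIs in kept cells, mesenchymal classes held 37.5%, immune 5.93%, endothelial 3.35% and epithelial 1.79%. The rest lay in cells without a class. The class names below stand for cells like that type, as judged from these markers alone. The label of sorted epithelial cells held for the KO library more than for the WT library. Epithelial classes took 5.85% of the kept WT cells and 67.3% of the kept KO cells, whereas immune classes took 36.9% and 3.1%, endothelial classes 20.7% and 2.16%, and mesenchymal classes 7.94% and 13.7%. Only 163 barcode sequences were found in both libraries, 0.531% of the WT barcodes. Of 26 classes, 20 had at least 30 cells in both libraries and were compared. At least 2 markers of another lineage were detected in 33.5% of the classed WT cells and 28.2% of the classed KO cells. Values without these cells are given for some pairs below, and where none is given the value may still differ. A class is a range of scores and not a sharp type. The share of its cells under a margin of 2 was 8.21% of WT and 2.35% of KO AT2 cells, but 46 of 130 WT and 24 of 48 KO activated fibroblasts, whose next class was adventitial fibroblast in WT and alveolar fibroblast in KO with a median of 2 and 3 markers detected.

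Sequences just upstream of the target genes are shown because TCF and LEF proteins act on such regions. The RefSeq promoter table matched 6 of the 10 genes (*Wnt2*, *Wnt4*, *Wnt7a*, *Lef1*, *Axin2* and *Cd44*), while *Wnt5a*, *Sfrp1*, *Ccnd1* and *Myc* had no entry. Capitals mark CTTTG or its reverse complement CAAAG, the core letters of the TCF and LEF motif, searched on both strands. Each line gives the 250 bases before the RefSeq start site, 5′ to 3′ on the strand of the gene, in GRCm38.p6. They lie at chr11:108920099-108920348 on the plus strand for *Axin2*, at chr3:131110047-131110296 on the plus strand for *Lef1* (the first of its 4 entries) and at chr2:102901666-102901915 on the minus strand for *Cd44*.
Axin2: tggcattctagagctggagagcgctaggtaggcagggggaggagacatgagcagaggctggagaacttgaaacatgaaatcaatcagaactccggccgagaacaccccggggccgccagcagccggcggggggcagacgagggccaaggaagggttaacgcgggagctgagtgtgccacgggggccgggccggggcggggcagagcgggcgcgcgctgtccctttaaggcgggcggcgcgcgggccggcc
Lef1: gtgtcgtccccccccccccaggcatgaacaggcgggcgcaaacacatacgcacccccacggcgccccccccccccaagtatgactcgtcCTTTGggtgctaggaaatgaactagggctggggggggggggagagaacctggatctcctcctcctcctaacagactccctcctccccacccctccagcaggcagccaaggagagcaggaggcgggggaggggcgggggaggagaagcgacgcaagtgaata
Cd44: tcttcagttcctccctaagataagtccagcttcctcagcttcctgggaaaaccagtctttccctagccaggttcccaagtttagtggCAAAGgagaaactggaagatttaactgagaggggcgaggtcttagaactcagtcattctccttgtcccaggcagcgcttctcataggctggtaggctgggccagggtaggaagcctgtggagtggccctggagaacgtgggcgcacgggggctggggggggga
*Lef1* held 1 match, whose first letter was at position -161 from the start site, *Cd44* held 1 match at position -163, and *Axin2* held 0. The longer form CTTTGA or TCAAAG was in none of these 3 windows. The other entries of *Lef1*, which start at other sites and are not printed, held 2, 1 and 3 matches, and the last of them held the longer form at 2 positions. The window with 2 matches overlaps the printed one, and 1 of its matches is the printed match. These letters were present in 15958 of all 32851 promoters of the same length (48.6%), and the longer form in 4544 (13.8%). A match describes the letters only and is not a binding site, and the window before a start site leaves out more distant and intronic sequence.

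**Figure D1:**
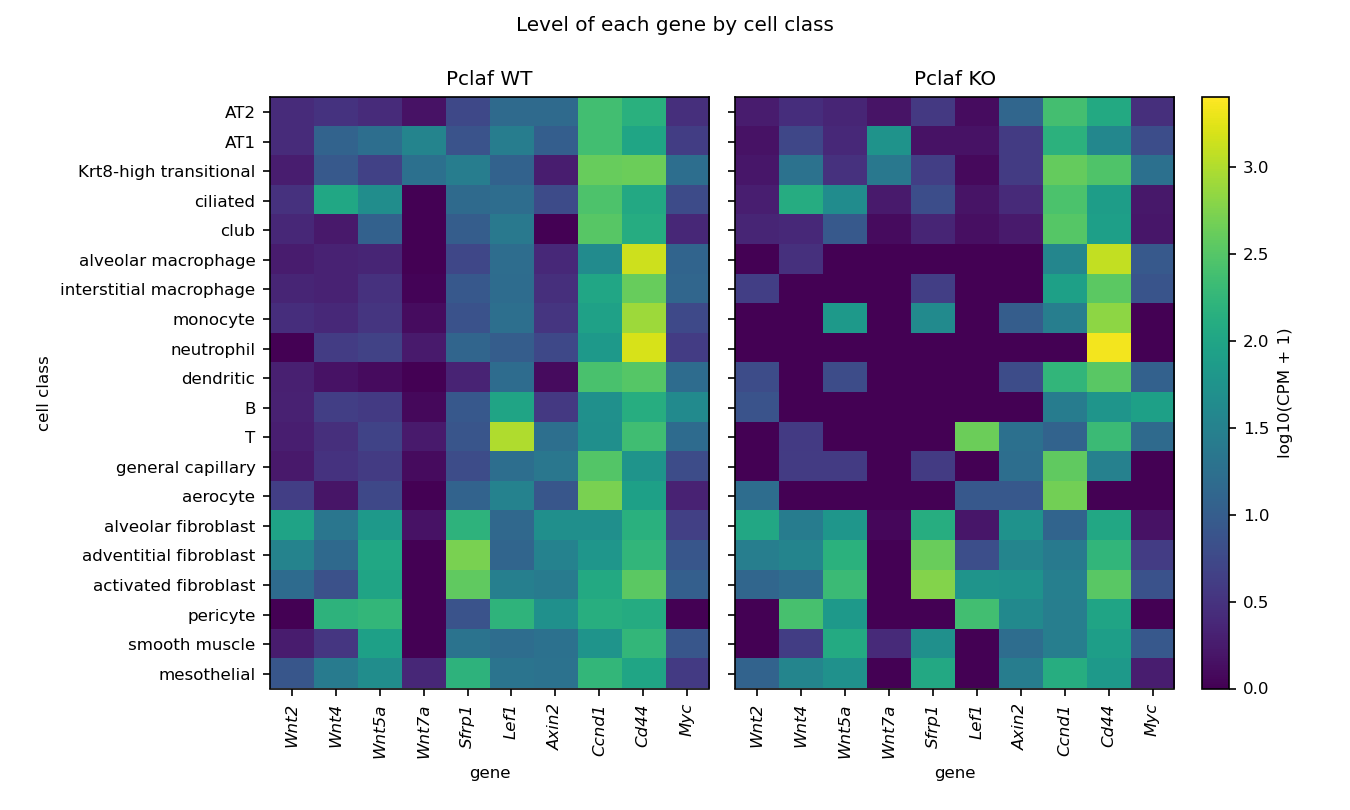
Level of the 10 genes (columns) in the 20 compared cell classes (rows), with the WT library on the left and the KO library on the right. Color gives log10(CPM + 1). Wnt2, Wnt5a and Sfrp1 were brightest in mesenchymal rows, Wnt7a in AT1 and Krt8-high transitional cells, Lef1 in T cells, Ccnd1 in aerocytes, Cd44 in neutrophils and alveolar macrophages, and Myc in B cells.

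Levels were computed from UMIs summed over the cells of a class and library. Their ranges in brackets are exact 95% Poisson intervals, which cover counting error only and say nothing of the spread between mice. Among the classes compared between the libraries, the one with the highest level was the same in both for 7 of the 10 genes. A gene was compared between libraries in a class where at least 10 UMIs were expected in the smaller library, which held for 74 of the 200 pairs of gene and class. Of these, 5 were at least 2-fold higher and 15 at least 2-fold lower in the KO library, and 54 were less than 2-fold apart. Over all genes and classes, 1.78% of the pairs were at least 2-fold higher and 5.69% at least 2-fold lower. Under these main settings both counts of the members were larger shares of their 74 pairs than these, and this was not tested. The higher count was smaller under several alternative settings, given in the last section. More lower than higher pairs were found over all genes too. The median log2 ratio of the genes of a class ran from -0.37 in club cells to 0.07 in AT1 cells and was below 0 in each class but AT1.

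The ligand *Wnt2* (chr6:17988940-18030585, minus strand, 5 exons), which marks fibroblasts of the lung, was highest in alveolar fibroblasts. There it had 388 UMIs in 1428 WT cells and 718 UMIs in 1435 KO cells, or 93.9 CPM (84.8 to 104) and 109 CPM (101 to 117). Adventitial fibroblasts followed at 31.7 CPM (22.1 to 44.1) in WT and 27.5 CPM (20.7 to 35.9) in KO, below alveolar fibroblasts beyond the intervals in both libraries. *Wnt2* was at 0 in pericytes of both libraries and at no more than 2.02 CPM in any WT epithelial class and 1.25 CPM in any KO epithelial class, among classes of at least 30 cells. The lymphoid classes, B, T and NK cells, gave 0.962 CPM (0.512 to 1.64) from 13 UMIs in WT and 3.66 CPM (0.443 to 13.2) from 2 UMIs in KO. Without cells holding markers of another lineage, WT B and T cells kept 1 UMI each and NK cells 0. The part of free RNA and of mixed cells in these values was not tested. Alveolar fibroblasts of the libraries differed by a log2 ratio, KO over WT, of 0.21 (0.03 to 0.39), and adventitial fibroblasts by -0.20, both less than 2-fold. At 1000 UMIs per cell, *Wnt2* was detected in 9.26% of WT and 11.0% of KO alveolar fibroblasts, after leaving out 488 and 132 shallower cells, against 0.126% of WT B cells. Without thinning the shares were 19.8% and 33.3%, with a median of 2424 UMIs per cell in WT and 4290 in KO.

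*Wnt4* (chr4:137277489-137299726, plus strand, 5 exons) encodes a ligand known from kidney and female reproductive tract development. It was high in cells of different lineages. Pericytes, the contractile cells on capillaries, had 158 CPM (117 to 208) in WT and 258 CPM (155 to 403) in KO. Ciliated cells had 106 CPM (86.9 to 129) in WT and 126 CPM (118 to 134) in KO, from 105 and 972 UMIs. Basal cells were higher still, with 390 CPM in 102 KO cells and 460 CPM in 12 WT cells, a WT class too small to be ranked. The intervals of WT pericytes and ciliated cells overlapped, and in KO so did those of basal cells and pericytes. Club cells, the neighbors of ciliated cells, had 0.689 CPM among the WT cells and 1.5 CPM among the KO cells. Of 6 classes compared, 2 were at least 2-fold higher in KO and 0 lower. In adventitial fibroblasts, 15 WT UMIs and 65 KO UMIs gave 13.6 and 33.1 CPM, a log2 ratio of 1.29 (0.46 to 2.20). It was past 2-fold under 6 of 9 alternative settings, with 0.86 without cells holding markers of another lineage and 0.33 with cells thinned to 1000 UMIs. In Krt8-high transitional cells, an intermediate on the way from AT2 to AT1 cells after injury, 9 WT UMIs and 88 KO UMIs gave 8.00 and 18.1 CPM, a log2 ratio of 1.18 (0.19 to 2.36). The Krt8-high value rests on few WT counts: it ran from -0.04 to 2.98 over the alternative settings, and without cells holding markers of another lineage only 1 WT UMI was left. Over all genes, 2.24% of adventitial fibroblast genes and 2.81% of Krt8-high genes were at least 2-fold higher in KO.

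*Wnt5a* (chr14:28504750-28527448, plus strand, 5 exons), the best known ligand of non-canonical Wnt signaling, was found across the mesenchyme. Levels in the 6 mesenchymal classes ran from 44.8 CPM in mesothelial cells to 180 CPM in pericytes in WT, and from 50.9 CPM in mesothelial cells to 205 CPM in activated fibroblasts in KO. Outside the mesenchyme, ciliated cells were the highest epithelial class in both libraries, with 45 UMIs (45.6 CPM) in the WT library against 344 UMIs (44.6 CPM) for the KO library. AT2 cells had 1.65 and 1.25 CPM, and the lymphoid classes 3.48 CPM in WT and 0 UMIs in KO.

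The libraries gave a different order of the mesenchymal classes for *Wnt5a*. Activated fibroblasts, the class marked by *Cthrc1* and *Postn*, had 81 UMIs in 130 WT cells and 66 UMIs in 48 KO cells, or 96.6 CPM (76.7 to 120) and 205 CPM (159 to 261). Pericytes had 57 UMIs in 157 WT cells but 5 UMIs in 37 KO cells, or 180 CPM (136 to 233) and 67.9 CPM. The ratios had opposite signs, at 1.09 (0.60 to 1.58) in activated fibroblasts and -1.41 (-3.08 to -0.10) in pericytes, and the difference between them was not tested. They were past 2-fold under 4 of 7 and 6 of 7 alternative settings, and came down to 0.81 and -0.74 with cells thinned to 1000 UMIs. Without cells holding markers of another lineage, activated fibroblasts had 113 and 216 CPM, less than 2-fold apart. Pericytes then had 208 and 74.8 CPM. In the KO activated fibroblasts 1 cell held 20 of the 66 UMIs. At 1000 UMIs per cell, the shares with *Wnt5a* were 6.67% in WT and 13.3% in KO activated fibroblasts, and 15% and 11.8% in pericytes. Their binomial intervals were 2.72 to 13.3 and 5.05 to 26.8 in activated fibroblasts, and 8.80 to 23.1 and 3.30 to 27.5 in pericytes, so each pair overlapped. The shares without thinning were 27.7% and 41.7%, and 20.4% and 13.5%. At 500 UMIs per cell, with no cell left out, they were 5.38% and 6.25% in activated fibroblasts. In pericytes they were 3.82% (1.42 to 8.13) in WT and 8.11% (1.70 to 21.9) in KO, the reverse order. Adventitial fibroblasts (104 and 148 CPM), smooth muscle (83.7 and 119 CPM) and alveolar fibroblasts (68.7 and 60.2 CPM) were less than 2-fold apart. Over all genes, 2.27% of activated fibroblast genes were at least 2-fold higher and 8.63% of pericyte genes at least 2-fold lower in KO. *Wnt5a* shares its locus with *Gm2670* on the opposite strand. In the KO monocytes all 15 *Wnt5a* UMIs and all 9 *Sfrp1* UMIs were in 1 cell each, and none was left without cells holding markers of another lineage.

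*Wnt7a* (chr6:91363981-91411363, minus strand, 4 exons) was an epithelial ligand. It was highest in AT1 cells, the flat cells of gas exchange, with 21 UMIs in 380 WT cells and 115 UMIs in 492 KO cells, or 33.2 CPM (20.6 to 50.8) and 55.2 CPM (45.5 to 66.2). Krt8-high transitional cells were next at 16.9 CPM (10.2 to 26.4) in WT and 22.3 CPM (18.3 to 26.9) in KO. AT2 cells were far lower, at 0.473 and 0.498 CPM, and no other class was above 1.55 CPM in either library. In KO, AT1 cells were above Krt8-high cells beyond the counting intervals, whereas in WT the intervals overlapped. The libraries differed by 0.73 (0.05 to 1.48) in AT1 cells and by 0.40 in Krt8-high cells on the log2 scale, less than 2-fold. The value in AT1 cells was -0.42 after thinning to 1000 UMIs per cell. There 7 of 126 WT cells (5.56%) and 15 of 384 KO cells (3.91%) held a *Wnt7a* UMI, and 254 WT and 108 KO cells were too shallow to enter, since the median AT1 cell held 761 UMIs in the WT library against 3587 for KO. The shares without thinning were 5.00% and 17.1%.

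**Figure D2:**
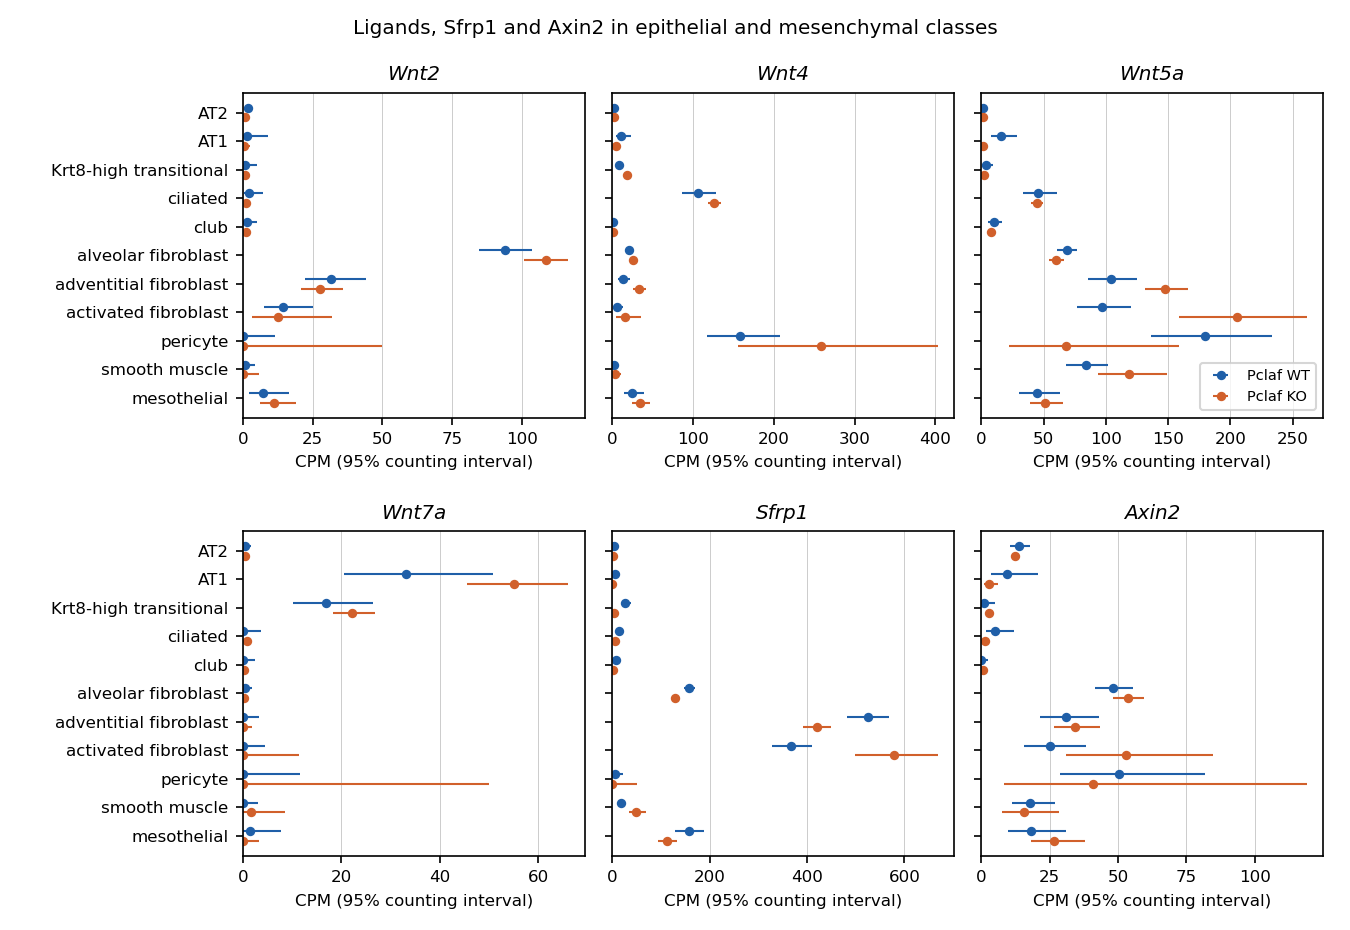
CPM (x axes, linear) of the 4 ligands, Sfrp1 and Axin2 in the epithelial and mesenchymal classes (rows), in WT (blue) and KO (orange). Points are the summed level of 1 library and bars its exact 95% Poisson interval. Wnt2 peaked in alveolar fibroblasts of both libraries at 93.9 and 109 CPM, and the points of activated fibroblasts for Wnt5a and Sfrp1 lay further right in KO.

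The secreted inhibitor *Sfrp1* (chr8:23411502-23449632, plus strand, 3 exons), which binds Wnt proteins outside the cell, was highest in fibroblasts. Adventitial fibroblasts had 579 UMIs in WT and 824 in KO, or 525 CPM (483 to 569) and 420 CPM (392 to 450). Activated fibroblasts had 308 and 186 UMIs, or 367 CPM (327 to 411) and 579 CPM (499 to 668). These classes exchanged first and second place between the libraries, each time with intervals that did not overlap. The KO activated class was 48 cells, however, and 1 of them held 30 of the 186 UMIs. Over 7 alternative settings the log2 ratio of this class ran from 0.13 to 0.79. Alveolar fibroblasts followed at 159 and 130 CPM, and mesothelial cells were close to them at 157 and 113 CPM. Pericytes had 2 UMIs in WT and 0 in KO. The log2 ratios were -0.32 in adventitial, 0.66 in activated and -0.29 in alveolar fibroblasts, all under 2-fold.

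Smooth muscle was the 1 of 6 compared classes in which *Sfrp1* was at least 2-fold higher in KO. It held 23 WT UMIs and 32 KO UMIs, or 18.5 CPM and 49.5 CPM, a log2 ratio of 1.42 (0.60 to 2.26), beside 2.03% of all smooth muscle genes. In the KO smooth muscle 1 cell held 15 of the 32 UMIs. The ratio was at least 2-fold under 5 of 9 alternative settings, and the lowest of these was 0.00049. Without cells holding markers of another lineage the levels were 16.7 and 25.9 CPM. In AT2 cells *Sfrp1* was at 4.49 and 2.70 CPM, and 1 KO cell held 36 of its 141 UMIs.

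*Lef1* (chr3:131110471-131224356, plus strand, 12 exons), a nuclear partner of beta-catenin that is also central to T cell development, was highest in T cells of both libraries. T cells had 6228 UMIs in 2063 WT cells and 151 UMIs in 107 KO cells, or 980 CPM (955 to 1004) and 426 CPM (360 to 499). The ratio was -1.20 (-1.45 to -0.97) and was past 2-fold under all 9 alternative settings, between -1.43 and -1.06. At 1000 UMIs per cell, 52.0% of WT and 28.0% of KO T cells held a *Lef1* UMI, with 17 and 0 shallower cells left out. Without thinning the shares were 69.6% and 49.5%. B cells had 551 UMIs (96.5 CPM) in WT and 0 in 60 KO cells, which against a floor of 3 counts is at least 5.00-fold lower. With cells thinned to 1000 UMIs the log2 bound was only -0.33, which is not past 2-fold. Over all genes, 11.8% of T cell genes and 12.7% of B cell genes were at least 2-fold lower in KO, with median log2 ratios of -0.29 and -0.33.

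Pericytes were the highest non-immune class for *Lef1*. They had 52 UMIs in WT and 17 in KO, or 164 CPM (123 to 215) and 231 CPM (134 to 369), and 227 and 209 CPM without cells holding markers of another lineage. Activated fibroblasts had 24 UMIs in WT and 18 in KO, or 28.6 and 56.0 CPM. Both classes were less than 2-fold apart, but without cells holding markers of another lineage activated fibroblasts stood at 18.1 and 58.9 CPM, a log2 ratio of 1.70.

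In all other compared non-immune classes *Lef1* was low, and higher in the WT library. It lay between 10.7 and 30.9 CPM in the WT classes, whereas the same KO classes had from 0 to 7.62 CPM. Alveolar fibroblasts had 54 UMIs in WT and 4 in KO, or 13.1 and 0.605 CPM, a log2 ratio of -4.43 (-6.36 to -2.99). General capillary cells had 194 UMIs (15.8 CPM) in WT and 0 in 245 KO cells, at least 3.65-fold lower, but its log2 ratio was -0.13 with no upper limit on the genes per cell. Over all genes, 5.43% of alveolar fibroblast genes and 4.09% of general capillary genes were at least 2-fold lower. The 6 immune lineage markers were also lower in KO. They summed to 312 CPM in WT and 18.1 CPM in KO alveolar fibroblasts and to 311 and 30.2 CPM in general capillary cells. In AT2 cells they summed to 393 and 28.6 CPM. The part of immune RNA in the *Lef1* ratios was not tested. Without cells holding markers of another lineage, *Lef1* went from 54 to 5 UMIs in WT alveolar fibroblasts, from 194 to 21 in WT general capillary cells and from 60 to 1 in WT AT2 cells. Of the 60 UMIs in WT AT2 cells, 1 cell held 14. *Lef1* also shares sequence with *Gm42449* on its own strand and with *Gm43352* on the other.

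**Figure D3:**
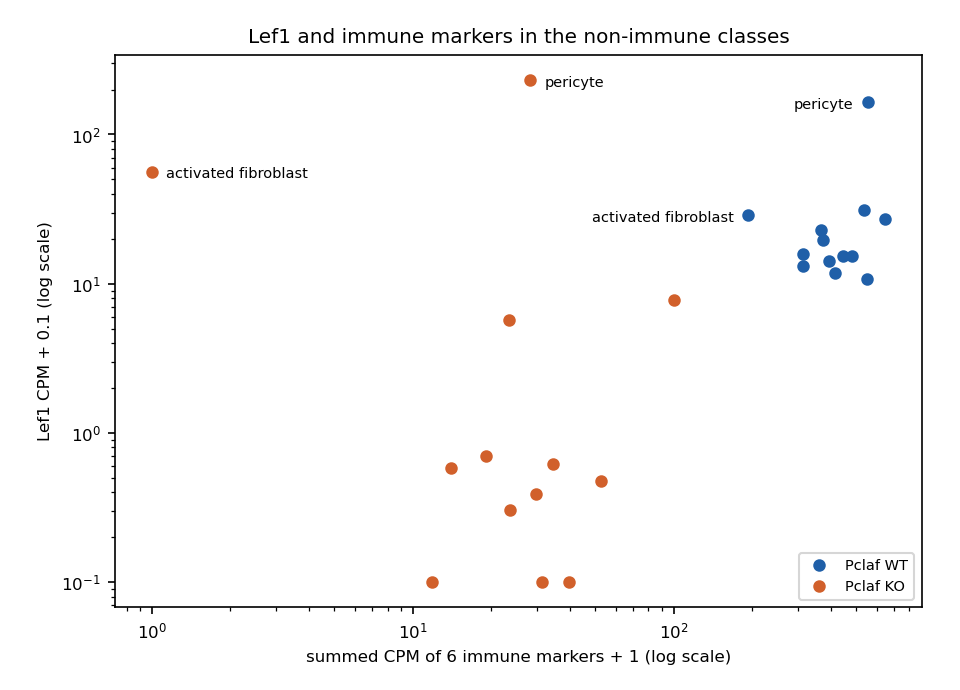
Lef1 (y axis, CPM + 0.1, log scale) against the summed level of 6 immune lineage markers (x axis, CPM + 1, log scale), 1 point per non-immune class in WT (blue) and KO (orange). The WT classes sit to the right with immune marker sums of 192 CPM and above, and outside pericytes and activated fibroblasts the KO points lie at or below 7.62 CPM of Lef1.

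*Axin2* (chr11:108920349-108950783, plus strand, 11 exons), a scaffold of the beta-catenin destruction complex that is itself a direct target and feeds back on the pathway, was highest in mesenchymal cells. Alveolar fibroblasts had 199 UMIs in WT and 354 in KO, or 48.2 CPM (41.7 to 55.3) and 53.5 CPM (48.1 to 59.4). Pericytes were level with them, at 50.5 CPM (28.9 to 82.0) from 16 WT UMIs and 40.7 CPM (8.40 to 119) from 3 KO UMIs. No neighbors in the order of the 4 highest classes differed beyond their intervals in either library. Alveolar fibroblasts differed by a log2 ratio of 0.15, and the 9 alternatives gave 0.13 to 0.37. At 1000 UMIs per cell 3.94% of WT and 5.07% of KO alveolar fibroblasts held an *Axin2* UMI (11.8% and 19.6% without thinning), against 0.336% of WT B cells.

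Activated fibroblasts were the 1 of 7 compared classes past 2-fold for *Axin2*, with 21 WT UMIs and 17 KO UMIs, or 25.0 and 52.9 CPM, a log2 ratio of 1.08 (0.07 to 2.07). It was past 2-fold under 3 of 7 settings, and *Wnt5a* and *Axin2* were the genes at least 2-fold higher in this class beside the 2.27% of all its genes.

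Within the alveolar epithelium *Axin2* was found mostly in AT2 cells. AT2 cells had 59 UMIs in WT and 637 UMIs in KO, or 13.9 CPM (10.6 to 18.0) and 12.2 CPM (11.3 to 13.2), while AT1 cells had 6 UMIs in each library, or 9.49 and 2.88 CPM. Krt8-high transitional cells had 1 UMI in WT and 14 in KO, or 0.889 and 2.88 CPM. Without cells holding markers of another lineage, AT1 cells had 0 *Axin2* UMIs in WT and 2 in KO. AT2 cells then had 24 and 339 UMIs, or 18.5 and 12.7 CPM. At least 2 epithelial lineage markers were detected in 29.5% of the WT and 75% of the KO AT1 cells. In KO the AT2 level was above those of AT1 and Krt8-high cells beyond the intervals. The AT2 log2 ratio was -0.19 (-0.58 to 0.22). None of the 4 members compared in AT2 cells was past 2-fold, beside 0.846% of AT2 genes higher and 4.86% lower in KO. Of these members, *Sfrp1* (-0.73) was at least 2-fold lower under 3 of 9 alternative settings, down to -1.77. *Axin2*, *Ccnd1* and *Cd44* were past 2-fold under 0 of 9. General capillary cells, at 21.2 and 15.8 CPM, were the highest of the compared endothelial classes. *Axin2* overlaps *Gm11670* on the opposite strand.

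*Ccnd1* (chr7:144929931-144939925, minus strand, 5 exons), the cyclin D1 that carries cells through G1, was expressed in all epithelial classes. Its epithelial levels ran from 233 CPM in AT2 cells to 408 CPM in Krt8-high cells in WT, and from 151 CPM in AT1 cells to 395 CPM in Krt8-high cells in KO. Aerocytes, the capillary cells closest to AT1 cells, were highest in both libraries, with WT at 512 CPM (480 to 546) and KO at 472 CPM (362 to 605). The KO interval also held the levels of Krt8-high and general capillary cells. With clusters, Krt8-high transitional cells were highest in both libraries, but the aerocyte cluster had 25 KO cells, too few to be ranked. AT2 cells were nearly level at 985 UMIs in WT and 12453 in KO, or 233 and 239 CPM, a log2 ratio of 0.04, and general capillary cells had 309 and 370 CPM. Its locus meets *LTO1* on the opposite strand.

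In fibroblasts and smooth muscle, in contrast, *Ccnd1* was lower in the KO library. Alveolar fibroblasts had 198 UMIs in WT and 77 in KO, or 47.9 and 11.6 CPM, a log2 ratio of -2.04 (-2.44 to -1.65). Activated fibroblasts had 97 and 9 UMIs (116 and 28.0 CPM, -2.05), adventitial fibroblasts 67 and 48 UMIs (60.7 and 24.5 CPM, -1.31), and smooth muscle 70 and 18 UMIs (56.4 and 27.8 CPM, -1.02). With T cells (48 and 11.3 CPM, from 4 KO UMIs) and monocytes (86.3 and 27.5 CPM, from 6 KO UMIs), 6 of 17 compared classes were at least 2-fold lower and 0 higher. The share of all genes at least 2-fold lower was 5.43% in alveolar, 5.42% in activated and 3.89% in adventitial fibroblasts, 7.52% in smooth muscle, 11.8% in T cells and 8.32% in monocytes. Markers of endothelial cells, in which *Ccnd1* was high, summed to 416 CPM over the WT and 40.2 CPM over the KO alveolar fibroblasts. Their part in the *Ccnd1* ratios was not tested. Without cells holding markers of another lineage, *Ccnd1* was at 32.4 and 8.34 CPM in alveolar, 50.2 and 20.2 CPM in adventitial, and 123 and 22.9 CPM in activated fibroblasts, but at 39.5 and 25.9 CPM in smooth muscle, less than 2-fold apart. The ratio was past 2-fold under 9 of 9 alternative settings in adventitial fibroblasts and monocytes, 8 of 9 in alveolar fibroblasts, 6 of 7 in activated fibroblasts, 7 of 9 in T cells and 6 of 9 in smooth muscle. With clusters in place of the marker scores, the alveolar fibroblast ratio was -0.33. Without cells holding markers of another lineage, T cells had 117 *Ccnd1* UMIs in WT and 1 in KO.

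*Cd44* (chr2:102811141-102901665, minus strand, 19 exons), the hyaluronan receptor that is counted among Wnt targets, was foremost a gene of myeloid cells. Neutrophils had 2097 UMIs in WT and 120 in KO, or 1568 CPM (1502 to 1637) and 2202 CPM (1826 to 2633). Alveolar macrophages followed at 1381 and 1211 CPM and monocytes at 793 and 665 CPM, in the same order in both libraries with no overlap of neighboring intervals. At 1000 UMIs per cell 73.1% of WT and 79.3% of KO neutrophils held a *Cd44* UMI (85.0% and 78.1% without thinning). Among non-immune classes Krt8-high transitional cells were highest in WT at 432 CPM (395 to 472) and had 287 CPM in KO, a log2 ratio of -0.59. Activated fibroblasts were level between the libraries at 348 and 342 CPM. AT2 cells had 145 and 117 CPM, and AT1 cells 99.6 and 36.4 CPM, the lowest epithelial class in both.

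*Cd44* was at least 2-fold lower in KO in 4 of 19 compared classes and higher in 0. AT1 cells had 63 UMIs in WT and 76 in KO, a log2 ratio of -1.45 (-1.95 to -0.95), beside 4.58% of AT1 genes. Without cells holding markers of another lineage this ratio was -0.58. The immune markers summed to 644 CPM in WT and 12.9 CPM in KO AT1 cells, and their part in the ratio was not tested. Aerocytes had 155 UMIs (85.6 CPM) in WT and 0 in 47 KO cells, at least 3.75-fold lower, beside 6.99% of aerocyte genes, and 11 WT UMIs were left without cells holding markers of another lineage. The others were smooth muscle, with 218 and 51 UMIs (176 and 78.8 CPM, -1.16), and B cells, with 733 and 9 UMIs (128 and 57.9 CPM, -1.15), beside 7.52% of smooth muscle genes and 12.7% of B cell genes. The smooth muscle ratio was past 2-fold under 7 of 9 alternative settings and the B cell ratio under 4 of 9, with levels of 121 and 68.6 CPM in B cells without cells holding markers of another lineage.

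*Myc* (chr15:61985391-61990374, plus strand, 3 exons), a transcription factor of growth and a classic target of beta-catenin, was sparse. B cells had 235 UMIs in 2477 WT cells and 13 UMIs in 60 KO cells, or 41.2 CPM (36.1 to 46.8) and 83.6 CPM (44.5 to 143), and the share at 1000 UMIs per cell was 3.32% and 8.47%. The expected KO count in B cells was under the limit for a comparison. Krt8-high transitional cells were second in both libraries, at 16.0 CPM (9.49 to 25.3) and 16.9 CPM (13.4 to 21). This was the 1 class in which *Myc* could be compared, with a log2 ratio of 0.08 (-0.67 to 0.90). In KO, Krt8-high cells were above AT2 cells (1.90 CPM) and AT1 cells (5.28 CPM).

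**Figure D4:**
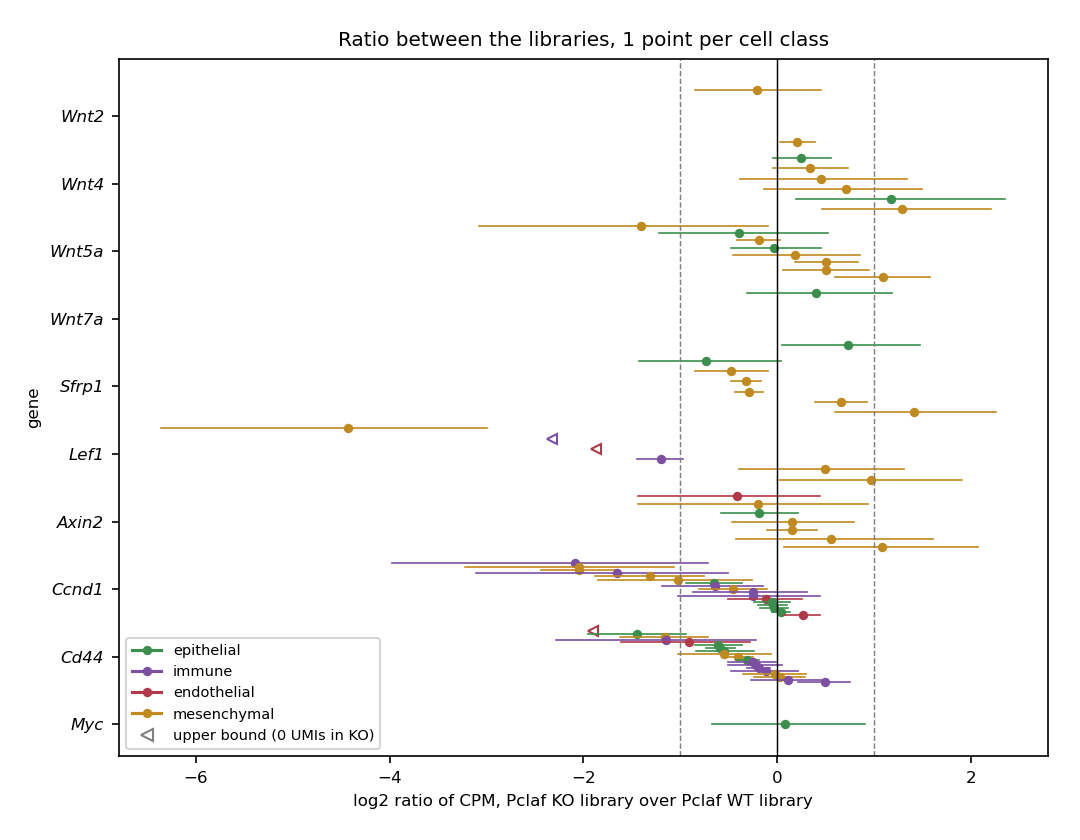
Log2 ratio of CPM, KO over WT (x axis), for the 74 compared pairs, 1 point per cell class in the row of each gene (y axis), colored by lineage. Bars are exact 95% counting intervals, dashed lines mark 2-fold, and open triangles are upper bounds where KO held 0 UMIs. Of the points, 5 lie at least 2-fold to the right and 15 at least 2-fold to the left, most of the latter in the rows of Lef1, Ccnd1 and Cd44.

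The alveolar epithelium also held cycling cells, called from at least 3 of 8 cell cycle markers, 20 in WT and 178 in KO. *Ccnd1* was at 240 CPM (171 to 327) in the WT cycling cells and 267 CPM in the other WT alveolar cells, but at 395 CPM (366 to 425) in the KO cycling cells and 244 CPM (240 to 248) in the other KO alveolar cells. *Cd44* was higher in cycling than in other alveolar cells of both libraries, at 330 against 190 CPM in WT and 184 against 126 CPM in KO. Both groups pool AT2, AT1 and Krt8-high cells, which differ in *Cd44* and *Ccnd1*, and the part of the class mix in these values was not tested. *Axin2* had 0 UMIs in the 20 WT cycling cells and 13.0 CPM (8.26 to 19.6) in the KO cycling cells, near the 11.1 CPM of the other KO alveolar cells. *Myc* had 1 and 3 UMIs in the cycling cells.

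Another 78 genes of the pathway were listed by role, and 61 could be compared in at least 1 class, in 442 pairs. Of these pairs 6 were at least 2-fold higher and 15 at least 2-fold lower in KO, with a median log2 ratio of -0.15, beside the 1.78% higher and 5.69% lower among pairs of all genes. The counts by role are given as a description. The 15 other Wnt ligands gave 15 pairs in 6 genes, of which 0 were past 2-fold in either direction. *Wnt3a* was in AT1 cells at 44.3 and 69.5 CPM in WT and KO, *Wnt7b* in Krt8-high cells at 59.6 and 52.1 CPM, *Wnt11* in ciliated cells at 95.2 and 88.4 CPM, and *Wnt9a* in mesothelial cells at 49.0 and 38.0 CPM. *Wls* and *Porcn*, which carry and acylate all Wnt proteins, gave 22 pairs with 1 higher and 0 lower. *Wls* was at 408 and 452 CPM in AT1 cells and at 96.6 and 108 CPM in alveolar fibroblasts.

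Receptors gave 105 pairs with 2 higher and 5 lower, and the R-spondin axis 33 pairs with 1 higher and 0 lower. *Fzd4* was at 20.3 and 2.57 CPM in AT2 cells, a log2 ratio of -2.99, while general capillary cells, where it was highest among the compared classes, had 296 and 233 CPM. Endothelial markers summed to 539 CPM in WT and 117 CPM in KO AT2 cells, and their part in this ratio was not tested. *Rspo1* was in mesothelial cells at 345 and 374 CPM. Among secreted inhibitors, 16 pairs held 1 higher and 1 lower, with *Dkk2* in activated fibroblasts at 29.8 and 80.9 CPM (1.44) and *Dkk3* there at 103 and 190 CPM (0.89). The relay inside the cell gave 119 pairs with 1 higher and 3 lower, including *Ctnnb1*, beta-catenin itself, in T cells at 156 and 73.3 CPM (-1.09). Nuclear factors gave 79 pairs with 0 higher and 5 lower. *Tcf7*, which like *Lef1* is a factor of T cells, was there at 297 and 192 CPM (-0.63). Other targets gave 53 pairs with 0 higher and 1 lower. Their values beside *Axin2* were 19.6 and 24.8 CPM of *Sp5* and 175 and 191 CPM of *Nkd1* in AT2 cells, whereas *Wisp1* in activated fibroblasts was at 167 and 62.2 CPM (-1.42).

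Genes with the most similar pattern were found by the Pearson correlation of log2(CPM + 1) over 41 columns, each a class of at least 50 cells in 1 library, among 14297 genes. The columns share libraries and depth, so r is a description. Closest to *Wnt2* were *Agtr1b* (r = 0.84), *Tecrl* and *Prkg2*, to *Wnt4* *Arvcf* (0.83), *Ptn* and *Wnt5b*, to *Wnt5a* *Abat* (0.91), *Map1a* and *Plac9b*, and to *Wnt7a* *Popdc3* (0.91), *Ndnf* and *Slc22a22*. *Sfrp1* was followed by *Gpr153* (0.88) and *Fbn1*, *Lef1* by *Gm2682* (0.94) and *Trbc1*, and *Axin2* by *Zbtb20* (0.80), *Ptch1* and *Mxra7*. For *Ccnd1* they were *Rassf9* (0.81), *Baiap2* and *Mansc1*, for *Cd44* *Nfil3* (0.87), *Rnf149* and *Emilin2*, and for *Myc* *Zkscan6* (0.73), *Rpl41* and *Rrp15*. Of the 30 genes found in all, 13 remained with log2(CPM + 10) and 12 with the Spearman correlation.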

How the data were processed

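Both libraries were deposited by the authors as 10x matrices of UMI counts per gene and barcode, not normalized. The submitters' processing notes name Cell Ranger 3.1.0 and STAR, whereas the deposited matrix header names Cell Ranger 5.0.0. Reads were aligned to GRCm38, and gene positions, exon numbers (of the transcript with most exons) and overlaps were read from GENCODE vM21. Depth was 98171818 UMIs in WT and 111267567 in KO, over more barcodes than the 16000 cells loaded per library.

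Cells were kept within the limits given above. Marker values per 10000 UMIs were divided by the mean of their 300 highest cells, capped at 1 and averaged per class. The best score had to be at least 1.5 times the second, with at least 2 markers detected. Among cells that both gate and clusters named, 20978 in WT and 13392 in KO, the name was the same for 81.1% and 87.7%. The clusters were named from the same markers as the gate. No doublet caller was run, and cells with at least 2 markers of another lineage were left out as an alternative. UMIs were summed per class and library, and no test was made since each genotype is 1 library. Ratio intervals are exact conditional binomial intervals, and share intervals are Clopper-Pearson. A count of 0 was set to a floor of 3 counts, which gives a value at the floor and not an interval limit.

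The members and lists were chosen with earlier results of these data known. Named genes are the 10 members, pathway genes with at least 50 UMIs in the class described, and the 3 most similar genes of each member among genes with at least 200 UMIs, some of which are not reported here. Only the ratio and its interval were checked on simulated counts, drawn as Poisson sums for AT2 cells, alveolar fibroblasts and activated fibroblasts. Such sums leave out the clumping of UMIs in single cells. The gate, thinning and clusters were not simulated. Alternatives were the limits on cells, the margin, clusters, thinning, the denominator, edgeR TMM factors, the UMI minimum and the measure of similarity. Tools were Python 3.11.15, numpy 2.4.6, scipy 1.17.1, pandas 2.3.3, scikit-learn 1.9.0, igraph 0.11.9, matplotlib 3.10.9, R 4.3.3 and edgeR 4.0.16 (TMM only).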

Additional observations from a re-analysis of the deposited data

Results flagged for a closer look

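*Wnt5a* had log2 ratios of opposite sign, KO over WT, in mesenchymal classes that both express it: 1.09 in activated fibroblasts and -1.41 in pericytes. With 1 library per genotype the difference between these ratios was not tested, and the pericyte value rests on 5 KO UMIs. At 500 UMIs per cell the share of pericytes with *Wnt5a* was 3.82% in WT and 8.11% in KO, the reverse order.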

How the results depend on the processing

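With 74 pairs compared, 5 were at least 2-fold higher and 15 at least 2-fold lower in KO. The higher count was 3 with no upper limit on genes, 1 with the stricter margin (of 56 pairs), 2 without cells holding markers of another lineage (of 58), 1 with clusters (of 68), 1 with cells thinned to 1000 UMIs (of 34) and 1 with a minimum of 30 expected UMIs (of 49). The lower count was 8 without cells holding markers of another lineage, 4 with thinned cells, 26 with a minimum of 5 expected UMIs (of 95) and 6 with a minimum of 30. The shares over all genes given above are for the main settings only, so they are no background for these counts. Of the ratios past 2-fold, *Wnt4* in Krt8-high transitional cells was the 1 that changed sign, to -0.042 with thinned cells, and the cause was not tested. Ratios under 2-fold changed sign more often, such as *Wnt7a* in AT1 cells (-0.42) and *Lef1* in pericytes (-0.67), both with thinned cells, and *Wnt5a* in smooth muscle (-0.10) with the stricter margin. Of 626 log2 ratios under alternatives, 548 lay within the counting interval of the reported value. In activated fibroblasts and pericytes the stricter margin left fewer than 30 cells in KO, and no cluster took either name, so these settings gave no ratio. Leaving out a replicate was not possible. No paired analysis was possible because each genotype is 1 library.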
